A study of Mus musculus with 12 samples.

Results

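The metallothioneins and the proteins that sense and carry zinc were followed across mouse livers kept on a normal diet, a high-fat diet, or a high-fat diet with fenofibrate. The 8 genes are the metallothioneins Mt1 and Mt2, the zinc-sensing transcription factor Mtf1, the exporters Slc30a1 and Slc30a10, and the importers Slc39a4, Slc39a8 and Slc39a14. They were chosen by gene name out of the 25164 genes of the joined count tables, and each name matched 1 gene. They were proposed with results of these same comparisons in view, in which Mt1 already stood among the largest changes. Their differences between groups are therefore a description, with no p-value printed. Where one of them is said to pass or not to pass the threshold applied to all genes, this only places it in that count and supports nothing.

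Liver RNA was sequenced in 12 libraries, 4 per group. Over 14 weeks, Control mice were fed normally and HFD mice a high-fat diet. The third group, called fenofibrate below, was fed the high-fat diet for the whole 14 weeks and from week 10 was also given fenofibrate, an activator of the nuclear receptor PPARA, by gavage for 4 weeks. The study assigned 10 mice to each group. Strain, sex, age, dose, vehicle and cage are not given in the labels used here, nor is it said that the 4 libraries of a group came from separate animals, so p-values measure only how these libraries vary, which may be technical. There was no fenofibrate group on the normal diet, and the HFD libraries serve both the diet comparison and the drug comparison.

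Metallothioneins are small cysteine-rich proteins that bind zinc and copper and buffer the free metal in the cell. MTF1 binds zinc when it is in excess, then binds metal response elements in the promoters of Mt1, Mt2 and Slc30a1 and raises their transcription. Proteins of the SLC30 family move zinc out of the cytosol and those of the SLC39 family move it in. Some members also carry manganese. In liver, metallothionein genes are also known to be induced by glucocorticoids, inflammatory cytokines and fasting.

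Total counts ran from 15797016 to 18514481 per library, and 13477 genes had enough counts to be tested. Values are counts scaled to a common library size (CPM, from sizes scaled by TMM), as mean ± SD with n = 4 libraries unless said otherwise, and log2 fold changes are ± SE. The 9 hepatocyte markers with counts summed to between 119700 and 145200 CPM without TMM scaling in every library, so the tissue label was borne out by its defining genes. Fenofibrate library 1 held 2137 CPM of 12 pancreatic acinar markers, where the other 11 libraries held 6.24 to 31.1 CPM, and fenofibrate libraries 1 and 3 held 195.8 and 147.1 CPM of 6 striated muscle markers, where all others were under 1 CPM. Erythroid markers too were highest in fenofibrate library 1, at 1185 CPM, and ran from 202.1 to 484.2 CPM in the rest. Results that rest on these libraries are also given without both of them. In bulk RNA, fewer cells that express a gene and less RNA per cell cannot be told apart.

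Mt1, a main inducible metallothioneins of liver (ENSMUSG00000031765, chr8:94179082-94180327, plus strand), was much lower on the high-fat diet and partly higher again with fenofibrate. It stood at 354, 432, 218 and 271 CPM in Control libraries 1 to 4. In HFD libraries 1 to 4 it stood at 9.18, 7.66, 11.1 and 11.4 CPM. In fenofibrate libraries 1 to 4 it stood at 53.0, 133, 74.5 and 50.2 CPM. The 3 groups did not overlap: the lowest Control library was above the highest fenofibrate library, and the lowest fenofibrate library was above the highest HFD library.

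The means of Mt1 were 319 ± 94.1 CPM in Control, 9.84 ± 1.76 in HFD and 77.6 ± 38.5 with fenofibrate. HFD livers thus held 3.09% of the Control level and fenofibrate livers 24.4%. The log2 fold change was -5.02 ± 0.32 for HFD against Control, 2.98 ± 0.30 for fenofibrate against HFD and -2.04 ± 0.28 for fenofibrate against Control. In linear terms the Control mean was 32.4 times the HFD mean, the fenofibrate mean was 7.89 times the HFD mean, and the Control mean was 4.10 times the fenofibrate mean. These values rest on 130 to 184 raw counts per HFD library, 3500 to 6658 per Control library and 1018 to 2217 per fenofibrate library. The authors' deposited table gives log2 fold changes of -5.003 for the diet and 2.97 for the drug.

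Libraries of a group differed most from each other with fenofibrate, where the coefficient of variation of Mt1 was 49.5%, against 29.6% in Control and 17.9% in HFD. Fenofibrate library 2 was the highest of its group at 133 CPM and the other 3 lay between 50.2 and 74.5 CPM. Without fenofibrate library 2 the log2 fold change against HFD was 2.59, the smallest value on leaving out any 1 library. The fenofibrate libraries with pancreatic and muscle transcripts were 1 and 3, not 2, and without both of them the change against HFD was 3.22 and that against Control was -1.78.

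Among all 13477 genes tested, 5 had a larger absolute log2 fold change than Mt1 between HFD and Control, and 2 of them were lower by more. Between fenofibrate and HFD, 12 genes had a larger absolute change, 7 of them upward. Between fenofibrate and Control the number was 73. This rank is a description of a gene picked for its change.

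**Figure D1:**
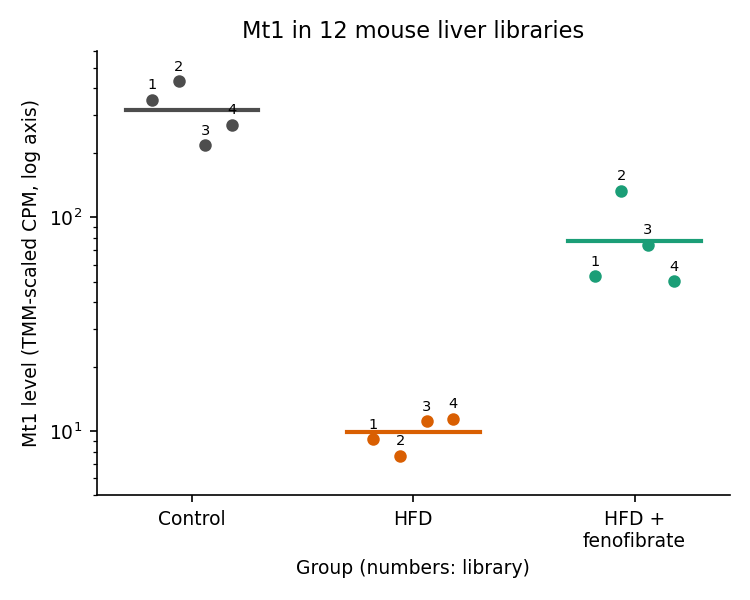
TMM-scaled CPM of Mt1 (log axis) in each of the 12 libraries by group, with points for libraries and a bar for the group mean. The Control libraries lie between 218 and 432 CPM, the HFD libraries between 7.66 and 11.4 CPM and the fenofibrate libraries between 50.2 and 133 CPM, with no overlap.

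Mt2, the neighbouring gene that is known to be co-induced with Mt1 (ENSMUSG00000031762, chr8:94172664-94173568, plus strand), had almost no counts. It was at 0 counts in 11 libraries and at 1 count in fenofibrate library 3, so no fold change is given. A count of 0 allows up to 3 counts, which is 0.162 to 0.190 CPM depending on the library, and this limit covers counting error only. Mt2 is listed only in the table that holds the fenofibrate libraries and was not tested.

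Beside the 27304 counts of Mt1 in all, Mt2 is a gene that shares most of its exons with a gene on the other strand. Mt2 ends 5514 bases before Mt1 starts, and 73.5% of its 588 exonic bases lie under Gm45774, a gene on the minus strand (chr8:94170748-94173412) that itself had 6 counts over all 12 libraries. That leaves 156 exonic bases of Mt2 not shared. Among 34 protein-coding genes with at least 70% of their exonic bases under a gene on the other strand, 26 (76.5%) had at most 100 counts over the 12 libraries, with a median of 18. Among 15268 protein-coding genes with under 10% shared, 4038 (26.4%) did, with a median of 1380.0. These thresholds were chosen after the value of Mt2 was seen. The sources used here do not give the strand setting of the counting, and the part of the overlap in the low count of Mt2 was not tested. The coding sequences of Mt1 and Mt2 are alike at 145 of 183 bases (79.2%), and the longest run of identical bases between the transcripts is 20.

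The promoters of Mt1, Mt2 and Slc30a1, the known MTF1 targets among these genes, are shown because they carry the short motif through which zinc acts on them. Each runs from 250 bases before to 50 bases after the start site given by RefSeq on GRCm38.p6, 5′ to 3′ on the gene's strand. Capitals mark matches to the core of the metal response element, searched as TGCACNC and TGCGCNC on both strands, a match on the other strand reading as its reverse complement.
Mt1 promoter (chr8:94178839-94179138, plus strand): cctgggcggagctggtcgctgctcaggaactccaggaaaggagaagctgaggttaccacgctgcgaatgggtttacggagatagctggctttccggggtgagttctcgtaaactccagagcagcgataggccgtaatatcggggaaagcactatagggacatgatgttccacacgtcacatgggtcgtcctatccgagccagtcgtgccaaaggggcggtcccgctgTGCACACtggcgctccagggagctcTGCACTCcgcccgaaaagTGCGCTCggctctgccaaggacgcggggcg
Mt2 promoter (chr8:94172368-94172667, plus strand): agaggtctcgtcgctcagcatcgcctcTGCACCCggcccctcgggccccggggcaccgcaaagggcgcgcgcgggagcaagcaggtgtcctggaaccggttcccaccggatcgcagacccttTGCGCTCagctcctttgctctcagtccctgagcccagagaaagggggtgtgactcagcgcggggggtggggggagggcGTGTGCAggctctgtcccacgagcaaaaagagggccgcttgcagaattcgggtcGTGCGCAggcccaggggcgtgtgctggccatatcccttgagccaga
Slc30a1 promoter (chr1:191906531-191906830, plus strand): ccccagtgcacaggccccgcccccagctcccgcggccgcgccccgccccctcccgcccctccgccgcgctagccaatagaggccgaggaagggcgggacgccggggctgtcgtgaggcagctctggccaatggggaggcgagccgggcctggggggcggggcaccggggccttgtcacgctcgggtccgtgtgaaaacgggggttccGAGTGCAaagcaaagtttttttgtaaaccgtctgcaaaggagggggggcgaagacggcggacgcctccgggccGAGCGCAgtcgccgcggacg
In the Mt1 window 3 cores were found, all on the gene's strand. Counting the start site as position 0, they begin at -23, 2 and 20. The Mt2 window held 4 cores, of which those beginning at -223 and -128 were on the gene's strand and those beginning at -50 and 4 on the other strand. The Slc30a1 window held 2 cores, both on the other strand, beginning at -43 and 30.

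The motif is short and common. Of 32851 mouse promoter windows of this length, 25.7% held at least 1 core, 7.11% at least 2, 1.97% at least 3 and 0.517% at least 4. RefSeq windows were matched for 6 of the 8 genes, all but Slc39a4 and Slc39a14. The Slc30a10 window held 3 matches, 2 of which overlap on opposite strands. The Mtf1 window held 0. Slc39a8 has 2 windows, with 0 and 1. A match is a stretch of letters and not a site shown to be bound. The number and position of cores depend on the start site that places the window. The Mt2 window ends at 94172667, and the Mt2 gene as given above starts at 94172664. Other start sites and bases beyond the windows were not searched.

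**Figure D2:**
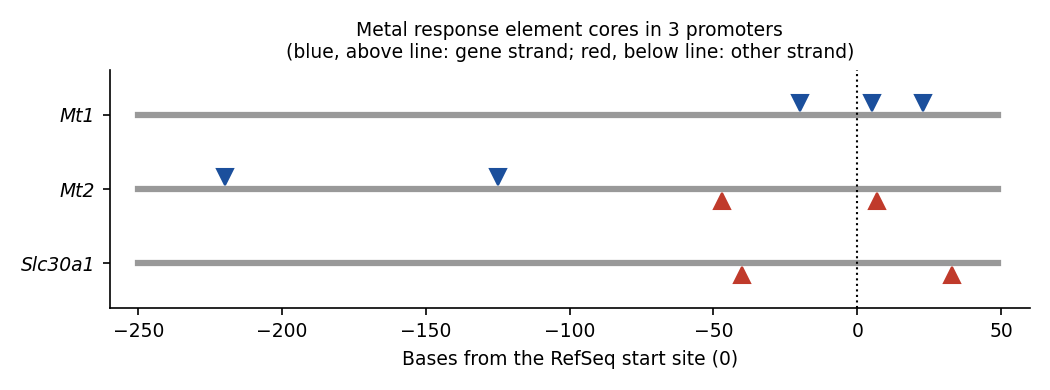
Positions of metal response element cores in the 300-base promoter windows, in bases from the RefSeq start site, with matches on the gene's strand and on the other strand drawn apart. In these windows Mt1 has 3 cores close to the RefSeq start site, all on the gene's strand. Mt2 has 4 that are spread over the window and split between the strands. Both patterns depend on the start site used, and bases outside the windows were not searched.

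Mtf1, the sensor itself (ENSMUSG00000028890, chr4:124802104-124849800, plus strand), differed little between groups. It stood at 11.6, 10.6, 9.76 and 10.9 CPM in Control, at 9.04, 8.36, 10.7 and 9.92 CPM in HFD and at 13.0, 11.5, 10.6 and 11.0 CPM with fenofibrate. Neighbouring groups overlapped in all 3 comparisons, with log2 fold changes of -0.18 ± 0.12 for HFD against Control, 0.28 ± 0.11 for fenofibrate against HFD and 0.10 ± 0.11 for fenofibrate against Control. The transcript level does not measure how much MTF1 is zinc-bound or nuclear.

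Slc30a1, the plasma membrane zinc exporter and an MTF1 target (ENSMUSG00000037434, chr1:191906767-191913247, plus strand), was lower in both high-fat groups. Its levels in Control were 52.3, 37.5, 35.0 and 34.03 CPM, library 1 being the highest. Those in HFD were 29.0, 24.2, 27.8 and 26.7 CPM, and those with fenofibrate were 28.3, 25.6, 23.6 and 26.8 CPM. Every Control library was above every library of both other groups, while HFD and fenofibrate overlapped. The log2 fold change was -0.56 ± 0.13 for the diet, -0.04 ± 0.13 for the drug and -0.61 ± 0.13 for fenofibrate against Control. Against HFD, Mt1 was at 2.98 ± 0.30 and Slc30a1 at -0.04 ± 0.13. The difference between the 2 genes was not tested, nor was the part of MTF1 in the level of either. Against Control, Slc30a1 no longer passed without fenofibrate libraries 1 and 3 (-0.59).

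Slc30a10, known chiefly as a manganese exporter of hepatocytes (ENSMUSG00000026614, chr1:185454848-185468762, plus strand), was lower in the fenofibrate group. It stood at 58.8, 48.0, 43.7 and 55.0 CPM in Control and at 63.6, 43.9, 48.9 and 51.9 CPM in HFD, which overlap (log2 fold change 0.02 ± 0.13). With fenofibrate it stood at 30.6, 37.7, 27.8 and 28.2 CPM, below every library of the other groups. The log2 fold change was -0.74 ± 0.13 against HFD and -0.73 ± 0.13 against Control. Without fenofibrate libraries 1 and 3 it was -0.66 and -0.63, and the gene was then no longer among those passing.

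Slc39a4, a zinc importer known best for uptake in the intestine (ENSMUSG00000063354, chr15:76612385-76616852, minus strand), was lower in HFD and higher again with fenofibrate. In Control it stood at 40.4, 35.3, 50.6 and 42.2 CPM, and in HFD at 16.8, 25.3, 23.2 and 16.6 CPM, with no overlap (-1.04 ± 0.18). With fenofibrate it stood at 48.9, 27.2, 33.97 and 29.7 CPM, library 1 being the highest. All 4 were above every HFD library (0.77 ± 0.18), and they overlapped with Control (-0.27 ± 0.18). Fenofibrate library 1 is the library with 2137 CPM of acinar markers, and the change against HFD without it was 0.57, at which Slc39a4 no longer passed. It also no longer passed without HFD library 1 (0.69) or 4 (0.68), or without fenofibrate libraries 1 and 3 together (0.48).

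Markers of 2 epithelia were set beside Slc39a4 and Mt1. Summed, the 6 intestinal markers reached 61.8 to 88.9 CPM in Control, from 123.5 up to 165 CPM in HFD, and between 100.9 and 119.9 CPM in the fenofibrate libraries. Nearly all of it came from Fabp2 and Lgals4. Fabp2 stood at 46.1 ± 10.3, 108 ± 24.1 and 75.2 ± 15.8 CPM in the 3 groups, and Lgals4 at 37.8 ± 6.40, 39.5 ± 6.51 and 26.3 ± 5.39 CPM, so the higher HFD sum was that of Fabp2. Vil1 and Muc2 had mean levels below 0.4 CPM in every group, and Cdx1 and Cdx2, which define the intestine, are listed in neither table. The 5 cholangiocyte markers, which mark the bile duct epithelium, summed to between 10.4 and 15.2 CPM in Control libraries. The sums were between 5.76 and 9.06 CPM in HFD libraries and between 8.26 and 11.5 CPM in fenofibrate libraries. Their order over the groups was that of Slc39a4 and Mt1, but the fenofibrate range overlapped those of Control and HFD. Much of the sum was Sox9, at 8.62 ± 2.40 CPM in Control, where Krt19 stood at 1.71 ± 0.852 and Krt7 at 0.910 ± 0.200 CPM. Of the 4 markers tested, 0 passed in fenofibrate against HFD or against Control. Of all genes, 13.5% and 9.17% passed in these 2 comparisons, either direction, so nothing is read from 0 of 4 markers. Among them Sox9 fell with the diet from 8.62 ± 2.40 to 4.50 ± 1.303 CPM (-0.94 ± 0.24, adjusted p = 0.0166), a call lost without Control library 1 (-0.74, adjusted p = 0.0612). Sox9 was singled out after its values were seen. The part of either epithelium in the levels of Slc39a4 and Mt1 was not tested.

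Slc39a8, an importer of zinc and manganese (ENSMUSG00000053897, chr3:135825279-135888572, plus strand), was slightly lower with fenofibrate. Levels were 35.0, 33.5, 34.6 and 37.8 CPM in Control, 39.4, 30.8, 39.0 and 37.8 CPM in HFD and 29.2, 31.4, 25.5 and 29.0 CPM with fenofibrate. The log2 fold change was 0.06 ± 0.10 for the diet, -0.35 ± 0.10 for the drug and -0.29 ± 0.10 for fenofibrate against Control. HFD library 2 lay within the fenofibrate range, whereas every Control library was above it. Against HFD, Slc39a8 no longer passed without HFD library 1, 3 or 4, without fenofibrate library 1, 3 or 4, or without fenofibrate libraries 1 and 3 together (-0.28).

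Slc39a14, the importer of zinc, iron and manganese that is known to be induced in the acute phase (ENSMUSG00000022094, chr14:70303469-70351425, minus strand), was the most abundant transporter of the 8 genes by CPM. It stood at 110.3, 84.8, 102 and 105 CPM in Control, at 100.015, 165, 115 and 129 CPM in HFD and at 130.1, 110.2, 145 and 164 CPM with fenofibrate. The groups overlapped in all 3 comparisons, by a margin of less than 0.1 CPM between Control and fenofibrate. The log2 fold change was 0.34 ± 0.15 for the diet, 0.11 ± 0.15 for the drug and 0.45 ± 0.15 for fenofibrate against Control.

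**Figure D3:**
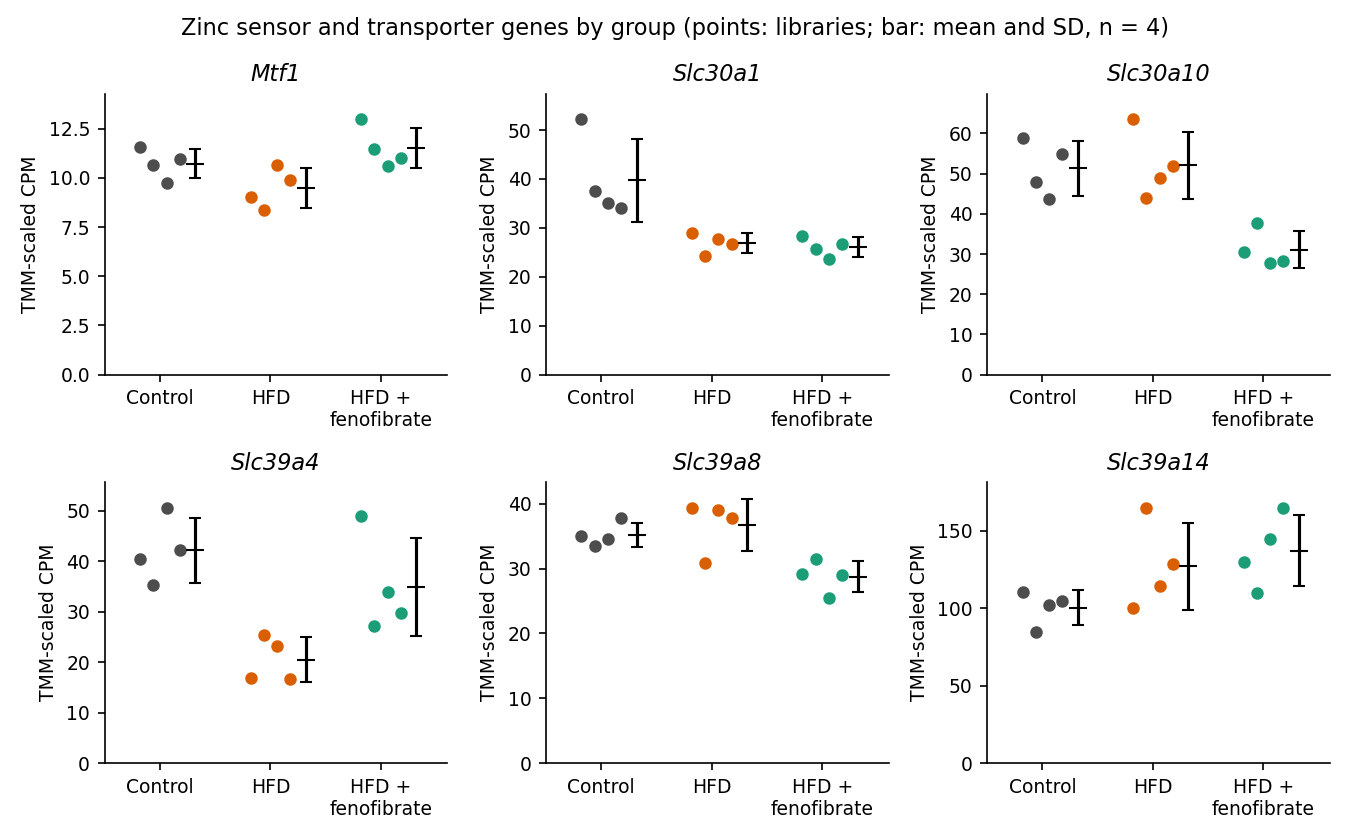
TMM-scaled CPM of Mtf1 and 5 zinc transporter genes in the 12 libraries (linear axes from 0), with points for libraries and bars for mean and SD. Slc30a1 is lower in both high-fat groups, Slc30a10 is lower with fenofibrate, and Slc39a4 is lower in HFD. With fenofibrate, 1 of 4 libraries of Slc39a4 lies in the Control range, library 1 at 48.9 CPM, which is the one with the acinar markers.

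Counted over the 7 genes with enough counts, 3 were lower and 0 higher at an adjusted p under 0.05 in HFD against Control, namely Mt1, Slc30a1 and Slc39a4. Of all genes tested 12.8% passed, 6.13% upward and 6.64% downward. The median log2 fold change of the 7 was -0.18, and that of all genes was -0.02. For fenofibrate against HFD, Mt1 and Slc39a4 were higher and Slc30a10 and Slc39a8 lower, where 13.5% of all genes passed, 6.89% upward and 6.59% downward, and the medians were 0.11 and 0.01. For fenofibrate against Control, Mt1, Slc30a1 and Slc30a10 were lower, where 9.17% passed, 4.86% upward and 4.31% downward, and the medians were -0.29 and -0.01. Groups without overlap numbered 3, 3 and 4 of the 7 in these comparisons, and 17.6%, 20.7% and 13.1% of all genes had no overlap. The members were picked from these contrasts, so nothing is read from their counts. The 3 comparisons share libraries.

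**Figure D4:**
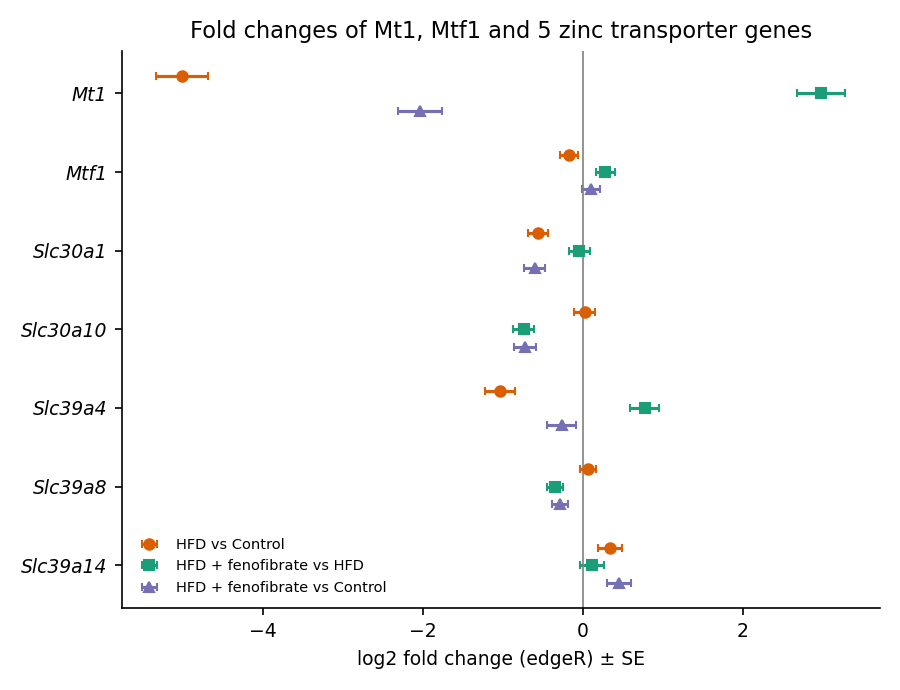
Log2 fold change of Mt1, Mtf1 and 5 zinc transporter genes in the 3 comparisons, with bars for the SE. Mt1 stands at -5.02, 2.98 and -2.04, and each of the other genes lies between -1.04 and 0.77.

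Per length, Mt1 was the highest of these genes in Control by a wide margin. By the exon lengths used here it was among the transporters in HFD. CPM per kilobase of exon in Control was 255.6 ± 75.5 for Mt1, 13.6 ± 2.05 for Slc39a4, 9.53 ± 1.04 for Slc39a14, 8.80 ± 1.17 for Slc30a10, 7.57 ± 1.62 for Slc30a1, 4.59 ± 0.243 for Slc39a8 and 1.21 ± 0.0849 for Mtf1. Slc39a14, Slc30a10 and Slc30a1 are neighbours in that order that did not differ beyond their spread. In HFD the order was Slc39a14 at 12.1 ± 2.65, Slc30a10 at 8.92 ± 1.43, Mt1 at 7.90 ± 1.41, Slc39a4 at 6.60 ± 1.43, Slc30a1 at 5.13 ± 0.391, Slc39a8 at 4.80 ± 0.525 and Mtf1 at 1.07 ± 0.114. There Mt1 lay within the spread of Slc30a10 and Slc39a4. With fenofibrate Mt1 was again first at 62.3 ± 30.9, followed by Slc39a14 at 13.0 ± 2.18 and Slc39a4 at 11.2 ± 3.12, which overlapped in spread. Exon lengths are those of all transcripts of a gene in GENCODE M21, in which the position of Slc39a4 is not that of the deposited tables. For Mt1 this length is 1246 bases, the whole span of the gene, while its main transcript has 549 bases. At the shorter length its values would be higher, so its place among the transporters in HFD depends on the length used. Levels by main transcript were not compared.

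The other zinc transporter genes are 19 in all. Slc30a2, Slc30a8, Slc39a7 and Slc39a12 had too few counts, and 15 were tested. In HFD against Control 1 rose and 0 fell, with a median log2 fold change of 0.08. The gene that rose was Slc39a9, a zinc importer of the Golgi and the cell surface, at 37.9 ± 1.22 CPM in Control and 51.4 ± 1.88 CPM in HFD (0.44 ± 0.08, adjusted p = 0.0022). It passed in all 18 alternative fits. In fenofibrate against HFD 1 rose and 2 fell, with a median of -0.11. In fenofibrate against Control 1 rose and 1 fell, with a median of 0.00. These counts stand beside 12.8%, 13.5% and 9.17% of all genes that passed in the 3 comparisons, either direction. With 15 genes tested, nothing is read from them about the family. The most abundant gene of the family per length was Slc39a1 at 29.8 ± 2.38, 36.0 ± 2.03 and 32.4 ± 3.12 CPM per kilobase in Control, HFD and fenofibrate, and it did not pass in any comparison. The metallothionein genes Mt3 and Mt4 are listed in neither table.

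The gene that rose with fenofibrate was Slc39a5, a zinc importer known from pancreas, intestine and liver. Its raw counts per library were low, from 5 to 14 in Control, from 13 to 28 in HFD and from 47 to 119 in the fenofibrate group, or 0.588 ± 0.217, 1.28 ± 0.504 and 4.15 ± 1.60 CPM. Its 4 fenofibrate libraries stood at 5.14, 3.36, 5.79 and 2.32 CPM and lay above all others. The log2 fold change was 1.71 ± 0.33 against HFD (adjusted p = 0.0054) and 2.80 ± 0.37 against Control (adjusted p = 0.000434). The highest values were in libraries 1 and 3, of which library 1 held the acinar markers. Without both, the change was 1.15 against HFD, which did not pass (adjusted p = 0.161), and 2.25 against Control (adjusted p = 0.00967).

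Slc30a7, a zinc exporter of the Golgi, fell with fenofibrate from 23.9 ± 0.948 to 18.8 ± 1.61 CPM (-0.35 ± 0.09 against HFD, adjusted p = 0.0245) and was lower than in Control too (-0.34 ± 0.09, adjusted p = 0.0304). Each of these calls was lost in 8 of 18 alternative fits. For the drug these were fits with no filter on low counts or without HFD library 1, 2 or 4, fenofibrate library 1, 3 or 4, or fenofibrate libraries 1 and 3 together, with adjusted p from 0.0517 to 0.23. Against Control they were fits with no filter, with only the 8 libraries compared, or without Control library 2 or 4, fenofibrate library 1, 3 or 4, or libraries 1 and 3 together, with adjusted p from 0.0681 to 0.235. Slc39a9 fell from 51.4 to 42.7 CPM with fenofibrate (-0.27 ± 0.08, adjusted p = 0.0374), a call lost in 10 of 18 fits, among them those without any 1 HFD library, without fenofibrate library 1, 2 or 3, and with the replicate number as a block (adjusted p = 0.0507).

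**Figure D5:**
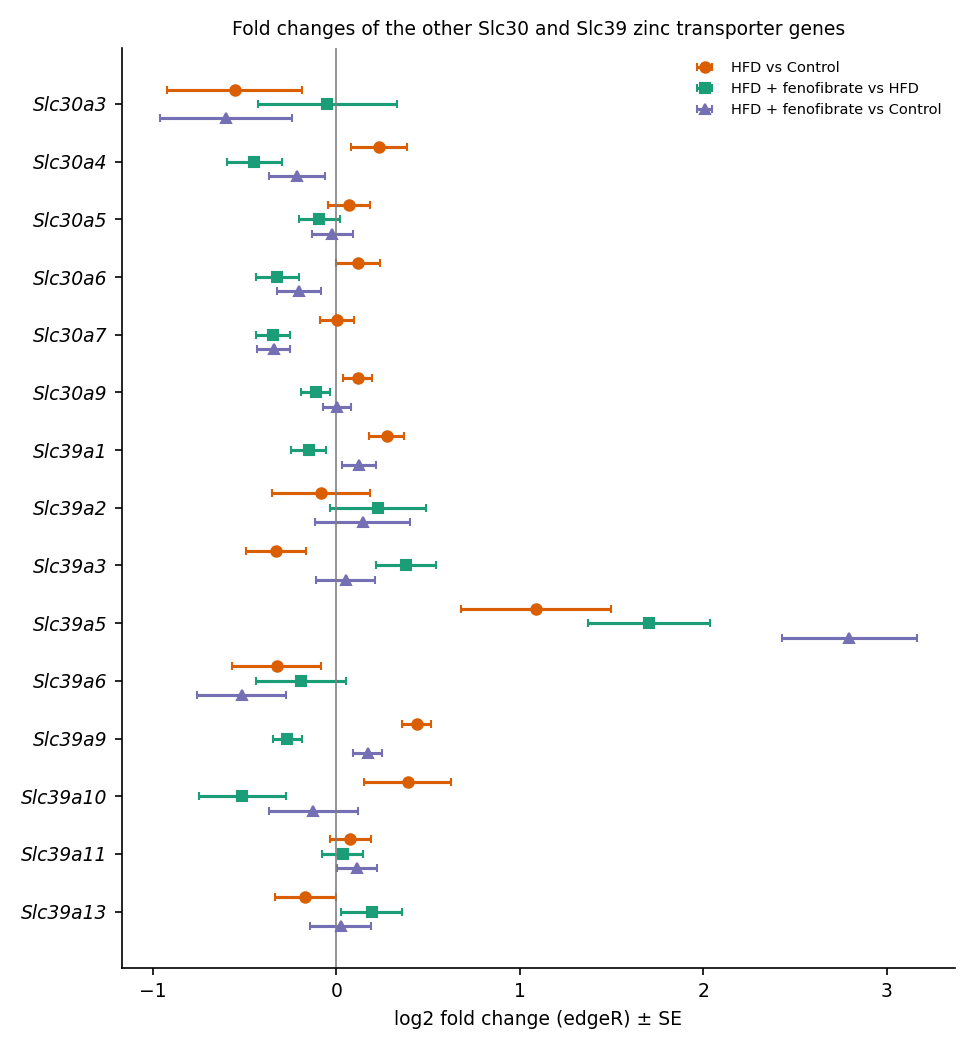
Log2 fold change of the 15 other tested zinc transporter genes in the 3 comparisons, with a colour and marker shape for each comparison and bars for the SE. Slc39a5 reaches 2.80 for fenofibrate against Control, and all values of the other 14 genes lie between -0.60 (Slc30a3) and 0.44 (Slc39a9).

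Copper-handling genes, which serve the other metal that metallothioneins bind, were counted next. Of 11 tested, 1 rose and 0 fell in HFD against Control, 0 rose and 1 fell in fenofibrate against HFD, and 0 passed in fenofibrate against Control, with medians of 0.04, -0.10 and 0.05. These counts stand beside shares of 12.8%, 13.5% and 9.17% of all genes, either direction. Steap4, a metalloreductase, rose with the diet (0.59 ± 0.17, adjusted p = 0.0302), a call lost in 5 of 18 fits, namely those with only the 8 libraries compared or without Control library 1 or 2 or HFD library 2 or 3 (adjusted p from 0.0535 to 0.104). Cp, the copper-carrying ferroxidase ceruloplasmin, fell with fenofibrate from 1296 ± 91.1 to 1024 ± 63.5 CPM (-0.34 ± 0.09, adjusted p = 0.029). That call was lost in 8 of 18 fits, those with no filter, with the replicate block (adjusted p = 0.0515) or without HFD library 1, 2 or 3, fenofibrate library 1 or 3, or both of the latter (adjusted p up to 0.3).

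Genes that respond to the other known inducers of metallothioneins were counted in the same fit. The shares of all genes that passed were 12.8% with the diet, 13.5% for fenofibrate against HFD and 9.17% against Control, either direction. Of 9 glucocorticoid-responsive genes, 0 rose and 1 fell with the diet (median 0.18), 2 rose and 0 fell with fenofibrate against HFD (median 0.06), and 1 rose and 0 fell against Control (median 0.22). Fkbp5, a cochaperone of the glucocorticoid receptor, stood at 66.1 ± 24.7 CPM in Control, 28.8 ± 17.5 in HFD and 61.1 ± 11.8 with fenofibrate. It was lower with the diet (-1.20 ± 0.33, adjusted p = 0.026) and higher with the drug (1.08 ± 0.33, adjusted p = 0.0397), and the groups overlapped both times. The diet call was lost without Control library 1, without HFD library 1, 3 or 4, or with only the 8 libraries compared (adjusted p from 0.0509 to 0.1). The drug call was lost in 9 of 18 fits, those with DESeq2 or without Control library 4, HFD library 1, 3 or 4, fenofibrate library 1, 3 or 4, or libraries 1 and 3 together (adjusted p from 0.0501 to 0.152). Zbtb16, a transcriptional regulator, rose with fenofibrate to 21.5 ± 5.53 CPM from 3.78 ± 0.963 in Control (2.51 ± 0.51, adjusted p = 0.00653). Against HFD it was higher by 1.53 ± 0.48 (adjusted p = 0.045), and this call was lost in 12 of 18 fits, among them those without any 1 fenofibrate library, without Control library 3 or 4, without HFD library 1, 3 or 4, and with DESeq2 (adjusted p from 0.0539 to 0.193).

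Of 15 acute phase genes, 0 rose and 2 fell with the diet, 2 rose and 3 fell with fenofibrate against HFD, and 2 rose and 3 fell against Control, with medians of -0.20, -0.31 and -0.41. These counts and those of the NRF2 targets below stand beside 12.8%, 13.5% and 9.17% of all genes, either direction. Lcn2, which encodes an iron-siderophore carrier, stood at 6.49 ± 3.87 CPM in Control, 3.01 ± 0.484 in HFD and 13.8 ± 5.14 with fenofibrate, and rose against HFD (2.19 ± 0.34, adjusted p = 0.00186) in all 18 alternative fits. Orm1, an acute phase glycoprotein gene, stood lower with fenofibrate than in HFD (-0.72 ± 0.19, adjusted p = 0.0218), a call lost without HFD library 1 or 4, fenofibrate library 3, or fenofibrate libraries 1 and 3 (adjusted p from 0.0551 to 0.193). Orm2 fell with the diet (-1.33 ± 0.37, adjusted p = 0.0276), a call lost in 4 of 18 fits. It was also lower with fenofibrate than in Control (-1.76 ± 0.37, adjusted p = 0.0083) and did not pass between fenofibrate and HFD (-0.43 ± 0.38, adjusted p = 0.474). Lbp fell with the diet (-0.41 ± 0.12, adjusted p = 0.037), a call lost in 9 of 18 fits. It rose with fenofibrate against HFD (0.67 ± 0.12, adjusted p = 0.00378), a call lost in 1 fit. Of 7 tested NRF2 targets, 1 rose and 2 fell with the diet, 2 rose and 1 fell with fenofibrate against HFD, and 0 passed against Control, with medians of -0.29, 0.08 and -0.13. Srxn1, a sulfiredoxin, fell with the diet from 49.4 ± 5.98 to 31.7 ± 3.51 CPM (-0.64 ± 0.13, adjusted p = 0.00563) in all 18 alternative fits, as did Txnrd1, a thioredoxin reductase (-0.47 ± 0.10, adjusted p = 0.00771). With fenofibrate against HFD, Srxn1 (0.51 ± 0.13, adjusted p = 0.0237) and Nqo1 (0.70 ± 0.21, adjusted p = 0.0403) rose. Gclc fell (-0.74 ± 0.19, adjusted p = 0.0216). These 3 calls were lost in 5, 10 and 3 of 18 fits.

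Clock genes, which mark the phase of the liver at dissection, also moved with the groups. Of 13, 7 rose and 4 fell in HFD against Control, 2 rose and 1 fell in fenofibrate against HFD, and 8 rose and 4 fell in fenofibrate against Control. The medians were 0.76, 0.01 and 1.23. Of all genes tested, 12.8%, 13.5% and 9.17% passed in these comparisons, either direction. Dbp stood at 1.76 ± 0.453 CPM in Control, 22.5 ± 12.7 in HFD and 45.1 ± 29.7 with fenofibrate. Dbp was higher than in Control on the high-fat diet (3.67 ± 0.53, adjusted p = 0.000452) and with fenofibrate (4.67 ± 0.53, adjusted p = 0.000128). Between HFD and fenofibrate Dbp did not pass (1.001 ± 0.41, adjusted p = 0.113), and the groups overlapped. In that comparison Per3 (1.27 ± 0.35, adjusted p = 0.0272) and Per2 (0.83 ± 0.24, adjusted p = 0.0321) rose. Clock fell (-0.47 ± 0.14, adjusted p = 0.042). The calls of Per3, Per2 and Clock were lost in 5, 6 and 7 of 18 fits. With the diet Nr1d1 rose (2.74 ± 0.20, adjusted p = 1.18e-06) and Arntl fell (-1.52 ± 0.24, adjusted p = 0.000903). These diet calls of Dbp, Nr1d1 and Arntl held in all 18 alternative fits. The part of these signals in the level of Mt1 was not tested.

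The genes whose pattern over the 12 libraries was most like that of Mt1 were found by the mean absolute difference between log2 CPM values centred on each gene's mean. The nearest were 5730420D15Rik at 0.73, E030018B13Rik at 0.73, Slc13a2 at 0.79, Myom3 at 0.80, Tuba8 at 0.82, Gm27252 at 0.87, Gm45531 at 0.94 and Cux2 at 0.95. Gm45531, the most abundant, stood at 46.5 ± 14.6 CPM in Control, 7.17 ± 1.11 in HFD and 17.6 ± 4.22 with fenofibrate. Slc13a2, a dicarboxylate transporter, stood at 5.97 ± 1.25, 0.848 ± 0.542 and 2.40 ± 0.388 CPM. The HFD means of 5730420D15Rik, E030018B13Rik, Myom3, Tuba8 and Cux2 were 0.248, 0.423, 0.2355, 0.386 and 0.401 CPM. In the HFD libraries 3 counts equal 0.177 to 0.19 CPM, so the likeness of these genes to Mt1 rests on few counts there. None of the 8 is in the zinc lists used here, and the mean CPM of each was below that of Mt1 in every group.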

How the data were processed

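Liver RNA of 12 libraries was analysed. The deposited counts are raw whole numbers per gene, per the file headers, in 2 tables that share the 4 HFD libraries. HISAT2 2.0.5, StringTie 1.3.2d and HTSeq 0.6.0 are named in the submitters' processing notes, without roles or settings. Strand setting and annotation release: not given in the sources used here. Per the file headers, the deposited fold change (a ratio), log2 fold change, p-value and adjusted p-value come from a comparison by the authors, and the deposited mean signal per gene was not used. Builds mm8 and mm9 are listed in the labels, but 23225 of 25113 identifiers (92.5%) have the GRCm38 position of GENCODE M21.

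The tables were joined by gene identifier (22657 genes shared, 1118 only in the diet table, 1389 only in the fenofibrate table), and a gene missing from a table, which lists only genes with at least 1 count, was given counts of 0. Counts were fitted with edgeR 4.0.16 in R 4.3.3 (filterByExpr, TMM scaling, quasi-likelihood test, 1 coefficient per group, all 12 libraries), with Benjamini-Hochberg adjustment over 13477 genes and a threshold of 0.05. A prior count of 0.125 was used for log2 fold changes. An SE is the absolute log2 fold change divided by the square root of F. Each adjusted p in the text is from this test. The fit was tested on simulated data. Libraries of a group differed beyond counting error (chi-square per gene 15.1 to 42.2), and none was counted as a repeat. Same-numbered libraries were not taken as pairs, since r between their deviations ran from -0.151 to 0.117.

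The genes and lists were chosen with earlier results of these data known. All 8 genes, every zinc transporter gene that passed, up to 3 passing genes of the largest change in a list and the 8 genes most like Mt1 could be named. Alternatives were DESeq2 1.42.0, RLE scaling, no filter, only the 8 libraries compared, a replicate block, each library left out, and fenofibrate libraries 1 and 3 left out together.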

Additional observations from a re-analysis of the deposited data

Results flagged for a closer look

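Each of the 22 tested zinc genes was examined in each group of 4 libraries for a single library far from the other 3, which gave 66 groups, of which 4 were over the 95% critical value. Chance alone puts about 1 in 20 groups over it. Slc30a5, a zinc exporter of the secretory pathway, was at 42.2 CPM in Control library 4 and at 32.3 to 33.9 CPM in the other Control libraries. Slc39a6 was at 3.98 CPM in that same library and at 2.21 to 2.42 CPM in the others. Slc39a2 was at 2.24 CPM in Control library 3, against 1.12 to 1.31 CPM. Slc39a3 was at 11.2 CPM in fenofibrate library 4, against 13.1 to 13.4 CPM. None of the 4 genes passed in any comparison, and Mt1 had no such library in any group.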

How the results depend on the processing

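Each result was refitted under 18 alternatives. No result that passed changed sign, but 4 values of the 8 genes that did not pass did, on leaving out 1 library: Slc30a10 in HFD against Control (0.02), at -0.09 to -0.01 in 3 fits, and Slc30a1 in fenofibrate against HFD (-0.04), at 0.01 in 1 fit. Signs also changed among the other zinc transporter genes where these did not pass, such as Slc39a2 in HFD against Control, from -0.19 to 0.18. Of the 8 genes, those that passed in HFD against Control numbered 3 under every alternative. For fenofibrate against HFD the count of 4 was 2 to 4 on leaving out 1 library and 1 without fenofibrate libraries 1 and 3 together. For fenofibrate against Control the count of 3 was 3 to 4 and 1. On leaving out 1 library the log2 fold change of Mt1 ran from -5.16 to -4.83, 2.59 to 3.14 and -2.43 to -1.86 in the 3 comparisons. Slc39a14 passed in fenofibrate against Control under 4 alternatives: DESeq2, no filter, and without HFD replicate 2 or fenofibrate replicate 2.

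All genes passing numbered 1721, 1816 and 1236. On leaving out 1 library they ran from 1112 to 1762 (lowest without HFD library 4), from 610 to 2416 (lowest without fenofibrate library 3) and from 717 to 1710 (lowest without fenofibrate library 3). Without fenofibrate libraries 1 and 3 together they were 124 for fenofibrate against HFD and 373 against Control. Other zinc transporter genes passing numbered 1, 3 and 2. With DESeq2 the diet count was 2, with no filter the fenofibrate counts were 1 and 1, with only the 8 libraries compared the count against Control was 1, and without fenofibrate libraries 1 and 3 they were 0 and 1. On leaving out 1 library they were 1 to 2, 1 to 3 and 1 to 2. The cause was not tested for these shifts.

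Replicate numbers did not pair the libraries: 0 of 12 correlated best with its own number. With the replicate block, 1511, 1674 and 1104 genes passed, and 3, 4 and 3 of the 8 genes. The levels of Slc39a5 rest on 5 to 14 counts per Control library. The alternatives were run for Sox9 too, chosen after seeing the data.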
